A study of Mus musculus with 6 samples.

Results

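The genes described here are the secreted Wnt ligands, the 2 proteins that load and export them, their receptors, the Dishevelled adaptors, and the secreted proteins that dampen or strengthen the signal. Members were chosen by symbol alone, and 59 of the 43383 rows of the table matched. Their mRNA was read by RNA-seq in astrocytes from 3 brains of 4-week-old male Aldh1l1-eGFP mice, in which GFP is driven by the Aldh1l1 promoter and marks astrocytes. GFP-positive cells were sorted separately from layers II–IV (upper-layer astrocytes, ULAs) and from layers V and VI (deep-layer astrocytes, DLAs) of the somatosensory cortex, which gave 6 libraries, 1 per layer and brain. Layer I with the meninges, the corpus callosum and the border of layers IV and V had been cut away, so the astrocytes of those places are not in either group. All 6 libraries come from mice with the same transgene and differ by layer and brain. Triplets of values below are in the order of brains 1, 2 and 3.

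Wnt proteins are lipid-modified by Porcn, carried to the cell surface by Wls, and bind Frizzled receptors together with the co-receptors Lrp5 or Lrp6. Dishevelled proteins then pass the signal on, either to β-catenin and the Lef/Tcf transcription factors or to branches that act on cell polarity and calcium, for which Ror and Ryk are alternative receptors. Secreted frizzled-related proteins (Sfrp) and Wif1 hold Wnt ligands outside the cell, Dkk1, Dkk2 and Dkk4 block the Lrp co-receptors, and R-spondins, through their Lgr receptors, keep the ligases Znrf3 and Rnf43 from removing Frizzled proteins. In the brain, Wnt7a and Wnt7b are known for their role in the growth of vessels and of the blood-brain barrier.

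Values are RPKM, reads on an mRNA normalised for its length in kilobases and for the mapped reads of the library, so that levels of different genes can be compared. The depth was 24.5 to 26.7 M reads per library in ULAs and 19.7 to 29.6 M reads in DLAs. The 10 astrocyte markers were all above 1 RPKM, and their summed level was 11724 to 12700 RPKM in ULAs and 11042 to 11834 RPKM in DLAs, against 7.29 to 7.68 and 5.27 to 7.90 RPKM for 10 neuronal markers and 1.54 to 2.52 and 0.84 to 6.78 RPKM for 10 endothelial markers. Summed oligodendrocyte markers were at 87.7 to 181 RPKM in ULAs and 179 to 285 RPKM in DLAs, with ULA/DLA ratios of 0.503, 0.427 and 0.635 in brains 1, 2 and 3. In sorted bulk samples, fewer cells of a type and less RNA per cell cannot be told apart.

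Of the 59 members, 28 had a mean of at least 1 RPKM over the 6 libraries and were tested, and 31 lay below it. Layers were compared with limma on log2(RPKM + 1) values of all 13999 rows that met this minimum, in a model of brain and layer. The Benjamini-Hochberg adjustment covered all of these rows, and passing means an adjusted p below 0.05. In this comparison 1.63% of all rows passed, 0.714% with a higher level in ULAs and 0.914% with a higher level in DLAs. Among the 28 tested members 2 passed, 1 in each direction: the antagonist-family gene Dkk3 was higher in ULAs and the antagonist Sfrp5, which met the minimum only through its DLA libraries, was higher in DLAs. The median log2 fold change (ULA minus DLA) of the 28 members was 0.10, beside −0.03 over all rows tested, and the 26 members that did not pass ranged from −0.37 (Fzd9) to 0.49 (Lgr4). In values simulated for the same 13999 rows, 0% of the genes changed by 0.5 on the log2 scale and 41% of those changed by 1 were called. Differences of this size can thus be missed with 3 brains. The shares belong to the simulated settings and set no limit for a single gene, since Dkk3 passed at 0.66.

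Among the 19 Wnt ligands, the mRNAs of Wnt7a and Wnt7b made up between 95.8% and 96.9% of the summed RPKM in every library. Wnt7a was measured at 50.60, 58.97 and 54.89 RPKM (ULAs) against 51.36, 62.43 and 43.45 RPKM (DLAs). The layers overlapped, and the log2 fold change was 0.08 (SE 0.11, 95% interval −0.17 to 0.33, adjusted p = 0.785). Wnt7b, which acts on the same receptor complex, was at 52.53, 41.53 and 41.64 RPKM (ULAs) against 52.71, 48.54 and 36.75 RPKM (DLAs). On the log2 scale it differed by −0.02 (SE 0.11, 95% interval −0.26 to 0.23, adjusted p = 0.958). For neither of these ligands was a layer difference detected beyond the scatter of the differences within brains. The intervals leave room for differences of up to about 0.3 on the log2 scale.

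Wnt5b, a ligand linked mostly to β-catenin-independent signalling, was the only other ligand with a mean of at least 1 RPKM. It was at 2.42, 2.10 and 1.53 RPKM (ULAs) against 1.23, 1.37 and 1.66 RPKM (DLAs), so that brains 1 and 2 were higher in ULAs and brain 3 was not (log2 fold change 0.31, SE 0.18, adjusted p = 0.411). The remaining 16 ligands stayed at or under 0.77 RPKM in every library. Wnt2b was the highest of them, at 0.57 to 0.77 RPKM in ULAs and 0.45 to 0.75 RPKM in DLAs, followed by Wnt5a at 0.42 to 0.46 and 0.22 to 0.50 RPKM and Wnt3 at 0.11 to 0.41 and 0.13 to 0.45 RPKM. Wnt9a (0.02 to 0.30 RPKM) and Wnt4 (0.09 to 0.23 RPKM) came next over the 6 libraries, and Wnt1, Wnt2, Wnt3a, Wnt6, Wnt8a, Wnt8b, Wnt10a, Wnt11 and Wnt16 were each at 0 in at least 1 library. Wnt9b and Wnt10b were listed at 0 in all 6 libraries, where 3 reads would correspond to at most 0.0338 and 0.0686 RPKM, and these limits cover counting error only.

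**Figure D1:**
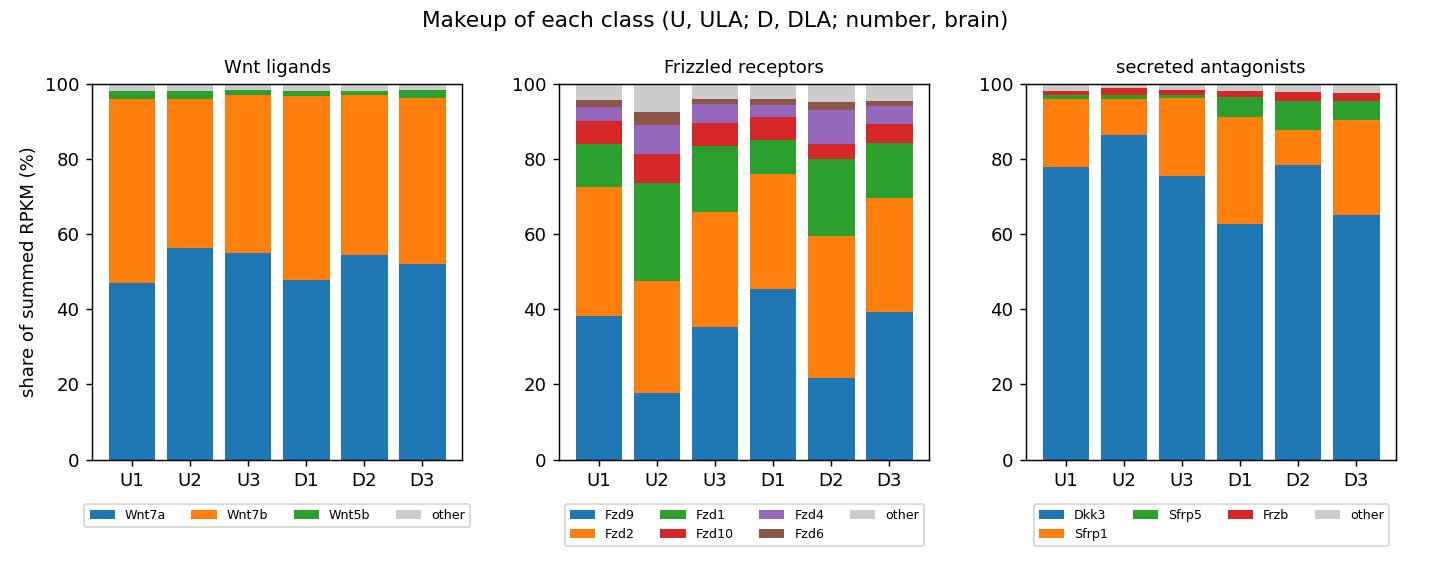
Stacked bars show the share (%) of the summed RPKM that each member holds in the Wnt ligands, the Frizzled receptors and the secreted antagonists, with 1 bar per library (U, ULA; D, DLA; the number is the brain). Wnt7a and Wnt7b fill 95.8% to 96.9% of the ligand bars in both layers, Fzd9 holds from 17.7% (U2) to 45.3% (D1) of the Frizzled bars, and Sfrp5 is seen as a wider band in the DLA bars.

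The machinery for Wnt export was abundant in both layers. Wls, the carrier that escorts Wnt proteins to the cell surface, was the most abundant member, at 78.38, 84.44 and 97.08 RPKM (ULAs) against 87.78, 101.06 and 105.40 RPKM (DLAs). Its level was lower in the ULAs of each of the 3 brains, but the difference was small and did not pass (log2 fold change −0.18, SE 0.09, 95% interval −0.39 to 0.03, adjusted p = 0.381). Porcn, the acyltransferase that adds the lipid to Wnt proteins, was at 55.08, 42.75 and 49.91 RPKM (ULAs) against 45.04, 50.03 and 44.49 RPKM (DLAs). The layers of Porcn overlapped (log2 fold change 0.07, SE 0.12, adjusted p = 0.799).

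Secreted antagonists were the group in which both of the differences that passed were found. Sfrp5, a secreted frizzled-related protein that binds Wnt ligands, has 3 exons on chromosome 19 from 42272461 to 42276742 (build mm9, as in the table). Its RPKM was 0.87, 0.90 and 0.82 in the ULAs of brains 1, 2 and 3 and 3.50, 3.87 and 3.37 in the DLAs. Each DLA value was about 4 times the ULA value of the same brain, with a DLA/ULA ratio of 4.14 ± 0.142 (SD, n = 3), and the layers lay far apart. Behind them are 40 to 44 reads in each ULA library and 144 to 189 in each DLA library, so the counting error of a ratio can exceed the SD of 0.142. The log2 fold change was −1.296 (SE 0.15, 95% interval −1.63 to −0.97, adjusted p = 0.00296), which understates the ratio because the level is low. The summed oligodendrocyte markers were also higher in the DLAs of 3 of 3 brains, with the ULA/DLA ratios given above, as were those of oligodendrocyte precursors (ratios of 0.665, 0.647 and 0.996). The precursor sum was mostly Olig1, at 82.98, 79.96 and 90.81 RPKM (ULAs) against 114.14, 125.49 and 87.19 RPKM (DLAs). Olig2 was higher in the DLAs of each brain, while Cspg4 was lower there, at 0.43, 0.41 and 0.18 RPKM against 0.92, 0.44 and 0.39 RPKM in ULAs. Pdgfra did not exceed 0.07 RPKM and Gpr17 did not exceed 0.03 RPKM. The part of both marker lists in the Sfrp5 and Dkk3 differences was not tested. Sfrp5 met the minimum of 1 RPKM only through its DLA libraries, since its ULA mean was 0.863 ± 0.0404 RPKM (SD, n = 3) against 3.58 ± 0.259 RPKM in DLAs. When every row was tested regardless of level it did not pass (adjusted p = 0.300), but in that setting 0 of 27963 rows passed. It passed in the other 9 settings in which it was tested, all of which keep the minimum of 1 RPKM. The lowest adjusted p of Sfrp5, 1.99e-05 without brain 1, came with a larger SE (0.242).

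Dkk3, a secreted glycoprotein of the Dickkopf family that, unlike Dkk1, is not an established blocker of the Lrp co-receptors, went the other way and was far more abundant. It was measured at 77.13, 61.06 and 65.25 RPKM (ULAs) against 42.85, 39.56 and 44.40 RPKM (DLAs; 2610 to 6331 reads per library). The lowest ULA value lay above the highest DLA value, and the ULA/DLA ratio was 1.604 ± 0.173 (SD, n = 3). On the log2 scale the difference was 0.66 (SE 0.10, 95% interval 0.43 to 0.90, adjusted p = 0.0123). Dkk3 has 8 exons on chromosome 7 from 119259533 to 119302571 (mm9). The call was lost in a model of layer alone (adjusted p = 0.0929), without the variance trend (0.0530) or without brain 1 (0.0979, where the log2 fold change was 0.58). It was also lost with no filter on low RPKM (0.305), where 0 of 27963 rows passed. The adjusted p of Dkk3 ran from 0.000150 to 0.305 in the 11 alternatives, and its direction held in each of them.

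Dkk3 held between 62.8% and 86.5% of the summed RPKM of the 11 antagonists, so the sum, at 98.94, 70.63 and 86.35 RPKM (ULAs) against 68.28, 50.52 and 68.28 RPKM (DLAs), largely repeated its values. Sfrp1, the most abundant of the Sfrp family in these cells, was at 17.82, 6.61 and 17.69 RPKM (ULAs) against 19.45, 4.78 and 17.27 RPKM (DLAs). Its layers overlapped (log2 fold change 0.10, SE 0.13, adjusted p = 0.741), and both libraries of brain 2 were far below the others. Frzb, also known as Sfrp3, was at 1.13 to 1.22 RPKM in ULAs and 1.09 to 1.63 RPKM in DLAs, and Sfrp4 at 0.81 to 1.67 and 0.75 to 1.17 RPKM, with log2 fold changes of −0.08 and 0.12 that did not pass. Wif1, Sfrp2, Dkk4 and Dkkl1 did not go above 0.32 RPKM in any library. Dkkl1, which is best known from the testis, held at most 1 read per library in ULAs and 3 to 7 reads in DLAs, too few for a comparison. Dkk1 and Dkk2, which block the Lrp co-receptors, were listed at 0 in all 6 libraries, where 3 reads would be worth at most 0.0682 and 0.0412 RPKM.

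**Figure D2:**
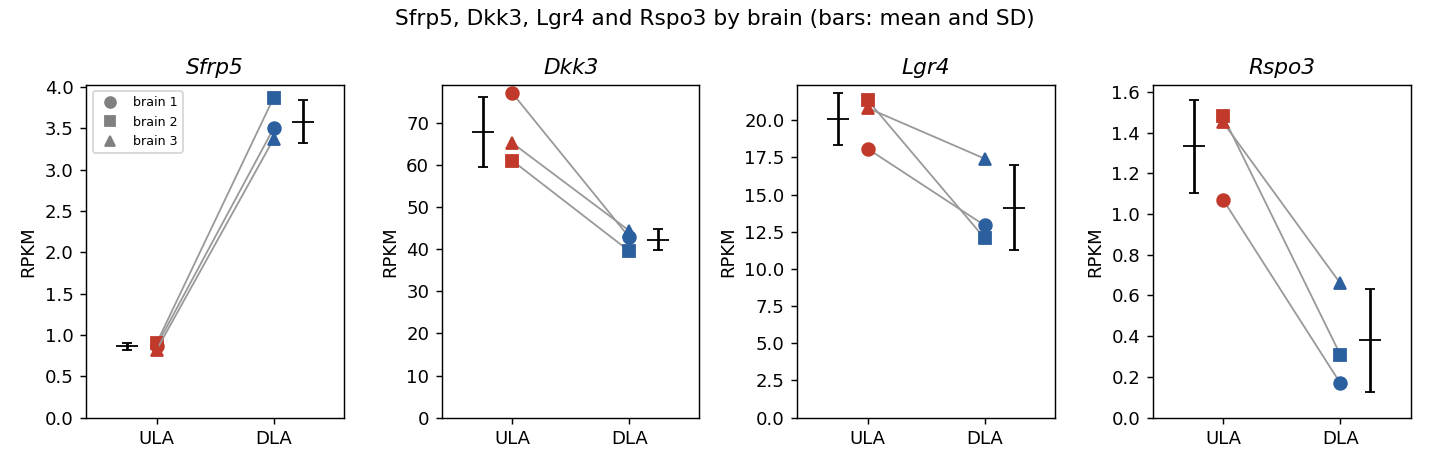
RPKM (linear axes from 0) of Sfrp5, Dkk3, Lgr4 and Rspo3 in the ULAs (red) and DLAs (blue) of each brain, with a line joining the libraries of 1 brain and black bars for the mean ± SD of 3 brains. Sfrp5 rises from 0.82 to 0.90 RPKM in ULAs to 3.37 to 3.87 RPKM in DLAs, and the other 3 genes have their 3 ULA points above their 3 DLA points.

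The R-spondin branch, which strengthens Wnt signals, held a further pair of members whose layers did not overlap. The same was true of 15.9% of all rows tested. Lgr4, a receptor for R-spondins, was at 18.08, 21.35 and 20.82 RPKM (ULAs) against 12.92, 12.05 and 17.41 RPKM (DLAs). All 3 ULA values lay above the DLA values, with a ULA/DLA ratio of 1.46 ± 0.292 (SD, n = 3), but the log2 fold change of 0.49 (SE 0.13, 95% interval 0.21 to 0.78) had an adjusted p of 0.1003 and did not pass. Without brain 3 it did (log2 fold change 0.62, SE 0.148, adjusted p = 0.00556). In that setting 426 and 687 of all rows passed, higher in ULAs and in DLAs respectively, against 100 and 128 in the main comparison. Over the alternatives the adjusted p of Lgr4 lay between 0.00556 and 0.424. Rspo3, the main R-spondin ligand seen here, was at 1.07, 1.48 and 1.45 RPKM (ULAs) against 0.17, 0.31 and 0.66 RPKM (DLAs). The ULA libraries held 63 to 93 reads and the DLA libraries 11 to 47 reads, and the ratio within a brain ran from 2.20 in brain 3 to 6.29 in brain 1. Its mean of 0.857 RPKM was under the minimum for the test. In the test with no filter, its log2 fold change was 0.77 (SE 0.12) with an unadjusted p of 0.00261 and an adjusted p of 0.339 (limma), a setting in which 0 of 27963 rows passed and 1124 and 1675 rows, higher in ULAs and in DLAs respectively, had an unadjusted p under 0.05.

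None of the other tested genes of this branch passed. Lgr6 was at 28.07, 21.96 and 22.72 RPKM (ULAs) against 25.53, 22.39 and 17.31 RPKM (DLAs), and together with Lgr4 made up at least 99.8% of the summed Lgr RPKM, while Lgr5 did not exceed 0.06 RPKM. Znrf3, a ligase that removes Frizzled proteins from the cell surface, was at 16.69, 19.20 and 16.17 RPKM (ULAs) against 16.86, 13.01 and 16.95 RPKM (DLAs), and its relative Rnf43 at 0.10 to 0.34 RPKM over the 6 libraries. The log2 fold changes of Lgr6 (0.16, SE 0.12) and Znrf3 (0.15, SE 0.14) did not pass. Rspo1 (0.01 to 0.30 RPKM), Rspo2 (0 to 0.08 RPKM) and Rspo4 (0 to 0.01 RPKM) held at most 15, 7 and 1 reads per library. Counted over the tested members, 4 of 28 had layers that did not overlap (Sfrp5, Dkk3, Lgr4 and Fzd3), or 14.3%, against 15.9% of all rows tested (6.59% with ULAs above DLAs, 9.27% with DLAs above ULAs), and 10 of 28 (35.7%) went 1 way in all 3 brains, against 38.4% of all rows, so both shares were slightly below those of all rows. Among the members under 1 RPKM, the layers of Rspo3, Dkkl1 and Wnt8b did not overlap either, the last at 0 to 0.02 RPKM in ULAs and 0.03 to 0.12 RPKM in DLAs. Dkkl1 and Wnt8b rest on 0 to 7 and 0 to 11 reads per library. The share over all rows under 1 RPKM was not counted, so these members have no background beside them.

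The promoters of the members with the largest layer differences are shown where the reference holds them. These are the 250 bases before the transcription start in RefSeq (build GRCm38.p6), written 5′ to 3′ on the strand of the gene, of Sfrp5 (chr19:42202253-42202502, minus strand) and Lgr4 (chr2:109917397-109917646, plus strand), with the Lef/Tcf core in capitals where it occurs.
Sfrp5: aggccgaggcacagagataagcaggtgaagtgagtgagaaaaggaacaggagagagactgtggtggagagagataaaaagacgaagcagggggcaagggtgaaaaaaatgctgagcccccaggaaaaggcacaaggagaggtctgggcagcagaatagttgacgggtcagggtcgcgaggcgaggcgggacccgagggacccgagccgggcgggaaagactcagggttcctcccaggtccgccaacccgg
Lgr4: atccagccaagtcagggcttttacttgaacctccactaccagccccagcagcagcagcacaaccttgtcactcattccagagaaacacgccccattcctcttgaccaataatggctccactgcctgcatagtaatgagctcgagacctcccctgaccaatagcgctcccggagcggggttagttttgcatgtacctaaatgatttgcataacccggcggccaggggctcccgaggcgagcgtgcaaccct
The core was searched on both strands as CTTTGAA with its variants that read CTTTGAT in one form, CTTTGTA in another and CTTTGTT in the last. Neither of these windows holds it, and it was found in 4 of the 44 windows of the 40 matched members (9.09%) and in 14.8% of all 32841 windows. The Sfrp5 window has a GC content of 59.6% and 13 CpG dinucleotides and that of Lgr4 55.6% and 10, against medians of 65.2% and 20.5 over the member windows and of 52.4% and 6 over all windows. Absence of these letters says nothing about whether the factors act elsewhere.

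Of the 10 Frizzled receptors, 9 had a mean of at least 1 RPKM and none passed between layers. Fzd9, Fzd2 and Fzd1 were the most abundant and together held 73.7% to 85.1% of the summed Frizzled RPKM. Fzd9 was at 59.44, 10.15 and 44.28 RPKM (ULAs) against 83.97, 14.58 and 48.81 RPKM (DLAs). Within each brain the DLA value was the higher, by 1.10 to 1.44 times, while the layers overlapped widely across brains. With the brain in the model the log2 fold change was −0.37 (SE 0.11, 95% interval −0.62 to −0.12, adjusted p = 0.150). Fzd9 passed without brain 3 (−0.49, SE 0.134, adjusted p = 0.0169), the setting in which far more rows of the whole table passed. Over the alternatives its adjusted p lay between 0.0169 and 0.883. Fzd2 was at 53.14, 17.18 and 38.50 RPKM (ULAs) against 56.60, 25.51 and 38.01 RPKM (DLAs; log2 fold change −0.21, SE 0.13, adjusted p = 0.450). Fzd1 was at 17.71, 14.99 and 22.24 RPKM (ULAs) against 17.07, 13.79 and 18.07 RPKM (DLAs; 0.15, SE 0.11, adjusted p = 0.542).

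The less abundant Frizzled genes were Fzd10 at 2.70 to 11.04 RPKM over the 6 libraries, Fzd4 at 4.42 to 6.27, Fzd6 at 1.52 to 3.12, Fzd7 at 0.95 to 3.29, Fzd8 at 0.97 to 3.00 and Fzd3 at 1.14 to 1.94 RPKM, with log2 fold changes between −0.17 (Fzd8) and 0.27 (Fzd3). Fzd3, which is known for its part in axon growth and tissue polarity, was the only Frizzled gene whose layers did not overlap, at 1.62, 1.69 and 1.94 RPKM (ULAs) against 1.3, 1.14 and 1.40 RPKM (DLAs; SE 0.15, adjusted p = 0.413). Fzd5 did not exceed 0.31 RPKM. For Fzd10, 75.5% of the exonic bases are shared with an Ensembl row on the same strand, so its reads may count towards both rows. Among the co-receptors, Lrp6 was at 1.51 to 2.74 RPKM and Lrp5 at 0.47 to 0.79 RPKM over the 6 libraries, with no detectable layer difference for Lrp6 (log2 fold change 0.03, SE 0.16, adjusted p = 0.952). The summed Frizzled level was thus 57.4 to 155 RPKM in ULAs and 67.5 to 185 RPKM in DLAs, well above that of the Lrp co-receptors at 1.98 to 3.43 RPKM.

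Ryk and Ror1, receptors of Wnt ligands with a kinase-like domain, were expressed at moderate levels. Ryk was at 12.01, 12.01 and 8.95 RPKM (ULAs) against 11.95, 7.79 and 11.21 RPKM (DLAs; log2 fold change 0.09, SE 0.16, adjusted p = 0.819). Ror1 was at 8.83, 8.86 and 6.70 RPKM (ULAs) against 5.64, 5.05 and 7.82 RPKM (DLAs), so that brains 1 and 2 were higher in ULAs and brain 3 was lower. Its log2 fold change of 0.36 (SE 0.18, 95% interval −0.03 to 0.75, adjusted p = 0.344) did not pass. Ror1 passed only without brain 3, at 0.64, where the adjusted p was 0.0123 and far more rows of the whole table passed. Ror2 reached 0.21 RPKM at most. The 3 Dishevelled genes were at 2.64 to 6.96 RPKM, with log2 fold changes of −0.04, 0.10 and 0.16 for Dvl1, Dvl2 and Dvl3, and none of them passed.

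**Figure D3:**
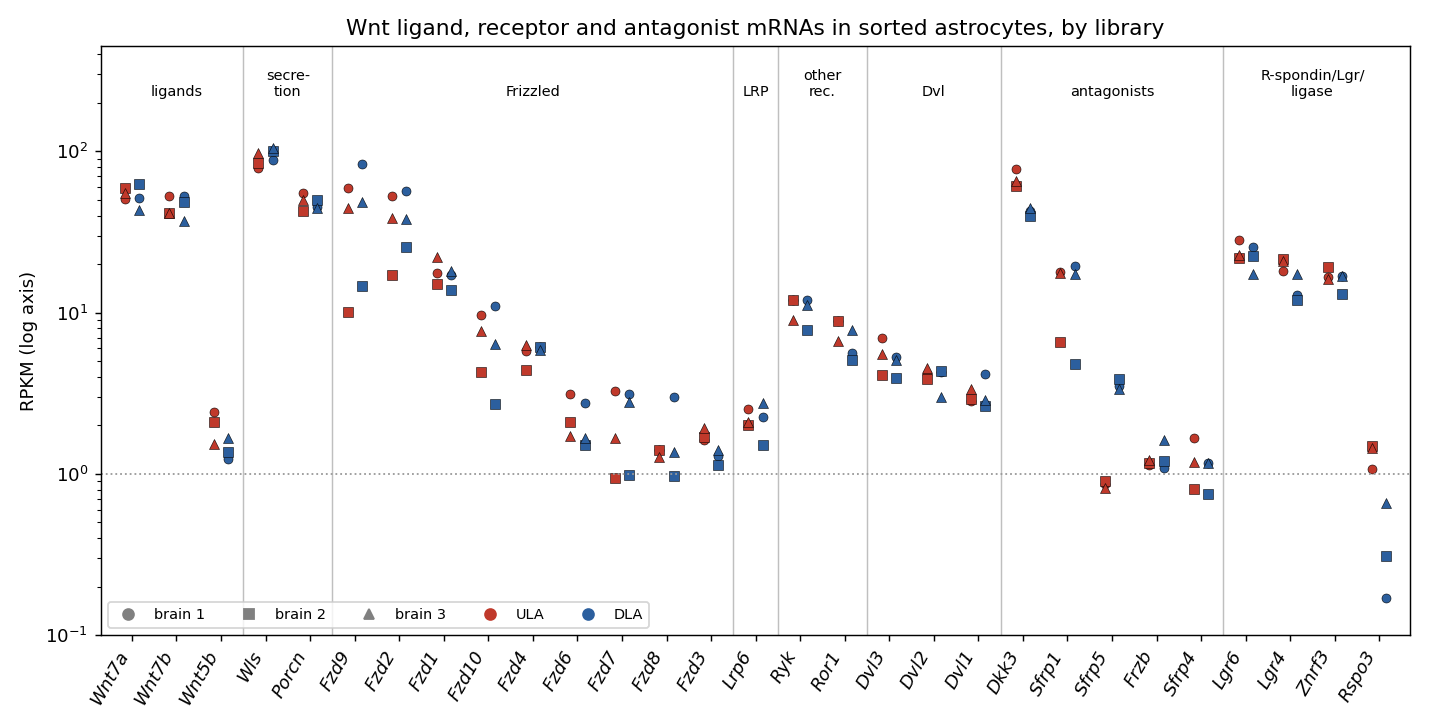
RPKM (log axis) of the 28 tested members and Rspo3 in each library, grouped by role, with ULAs in red, DLAs in blue and a symbol for each brain; the dotted line marks 1 RPKM. Wls reaches 105.40 RPKM while Sfrp5 and Rspo3 lie near the line, and the squares of brain 2 sit below the other brains in both layers for Fzd9, Fzd2, Fzd10, Fzd7 and Sfrp1.

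**Figure D4:**
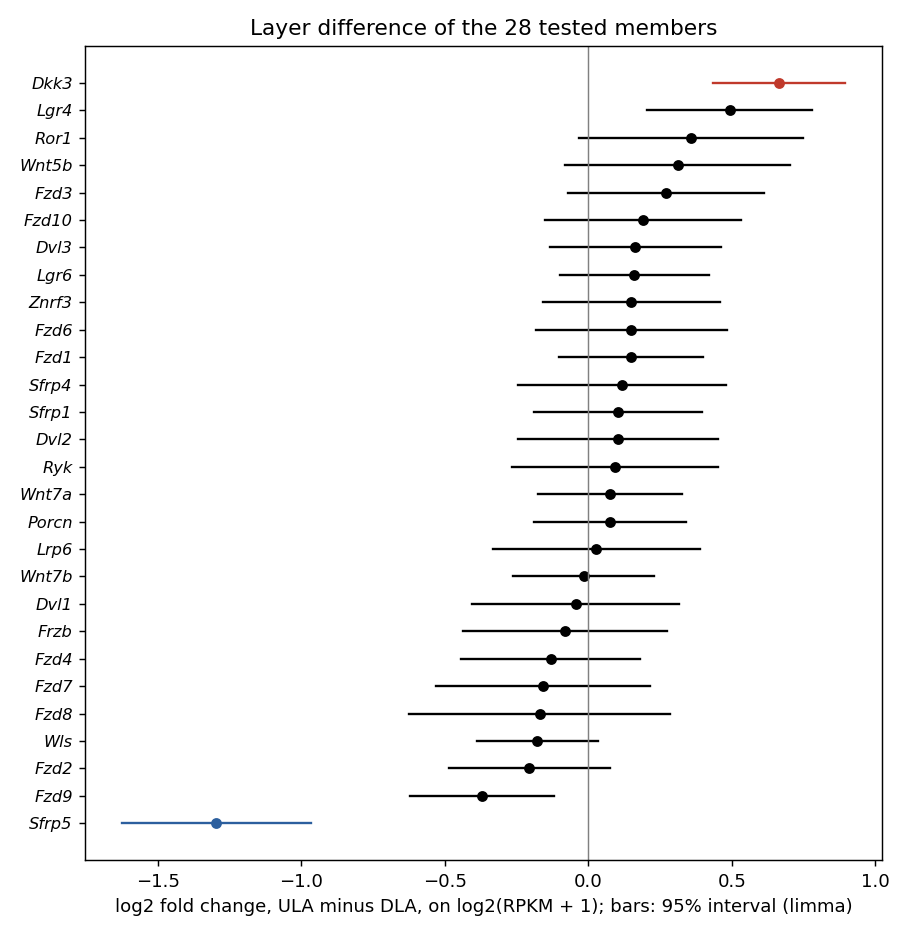
Log2 fold change (ULA minus DLA) of the 28 tested members on the log2(RPKM + 1) scale, with 95% intervals from limma. Only Dkk3 (0.66, red) and Sfrp5 (−1.296, blue) passed, and the intervals of Lgr4 and Fzd9 leave out 0 while their adjusted p-values are 0.1003 and 0.150.

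Some members varied from brain to brain in both layers. The brain term of the same model, examined after the values had been seen, passed for 5 of the 28 tested members (17.9%), against 2.85% of all rows tested. These were Fzd9, Sfrp1, Fzd2, Fzd10 and Fzd7, with adjusted p-values of 4.11e-05, 0.0011, 0.00411, 0.0102 and 0.0423 (limma F-test over 3 brains). In each of these genes brain 2 was the lowest in ULAs and also the lowest in DLAs. On the log2(RPKM + 1) scale, brain 2 minus the mean of brains 1 and 3 came to −2.23 in ULAs and −2.06 in DLAs for Fzd9, and to −1.301 and −1.74 for Sfrp1. For Fzd2 the corresponding differences were −1.35 and −0.84, for Fzd10 −0.86 and −1.35, and for Fzd7 −0.79 and −0.995. Brain 2 was the lowest in both layers for 10 of the 28 tested members (35.7%) and for 14.4% of all rows tested. Wnt7a, Wnt7b, Wls and Porcn did not share this pattern, with differences of −0.29 to 0.16 in ULAs and 0.07 to 0.39 in DLAs.

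Some properties of these genes can be set beside the pattern. The 4 Frizzled genes have 1 exon each in the table, and Sfrp1 has 3. Over all 1325 tested rows of 1 exon the median difference of brain 2 from the other brains was −0.01 in ULAs and −0.03 in DLAs, beside −0.02 and −0.02 over all rows. The transcripts of the 5 genes have a GC content of 50.8% to 62.2%, beside a median of 50.1% over the tested rows that could be matched. Across those 11228 rows, the difference of brain 2 went down with GC content in ULAs (Spearman's rho −0.26) and up with it in DLAs (0.39). Rows of a library share its depth and base composition, and these correlations are across genes. The part of exon number and GC content in the pattern of the 5 members was not tested. Of the 5 genes, Fzd7, Fzd9 and Fzd10 have a promoter window in the reference, and only that of Fzd7 (chr1:59481897-59482146 on GRCm38.p6, plus strand) holds the Lef/Tcf core. It is shown because of this match, which is a description only, with the core in capitals (CTTTGTT on the opposite strand).
Fzd7: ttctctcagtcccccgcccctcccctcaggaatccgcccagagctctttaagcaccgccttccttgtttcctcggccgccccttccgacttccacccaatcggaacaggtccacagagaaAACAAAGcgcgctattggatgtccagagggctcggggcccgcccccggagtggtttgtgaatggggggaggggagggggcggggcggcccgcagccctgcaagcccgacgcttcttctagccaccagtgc
The match begins at position −130 from the transcription start, and the window has a GC content of 65.2% and 17 CpG dinucleotides.

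**Figure D5:**
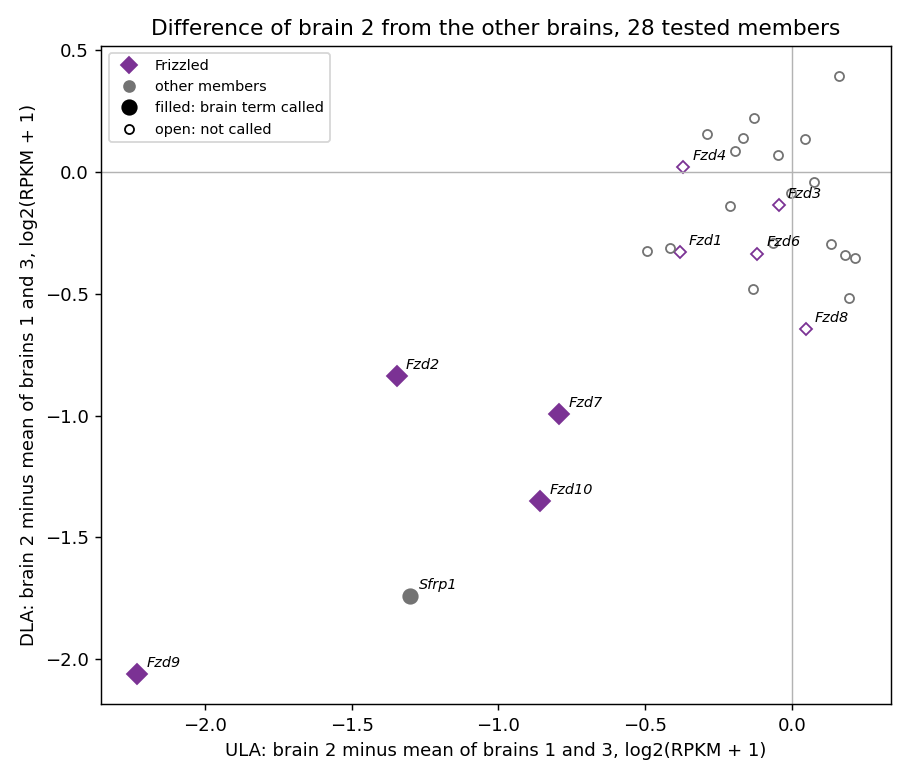
For each of the 28 tested members, the difference of brain 2 from the mean of brains 1 and 3 on the log2(RPKM + 1) scale in ULAs (horizontal) and DLAs (vertical). Frizzled genes are purple diamonds, and large filled symbols mark the 5 members whose brain term passed, which lie at the lower left from −0.79 to −2.23 in ULAs and from −0.84 to −2.06 in DLAs.

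The rest of the Wnt pathway was described from 3 lists of 101 genes, of which 76 were tested. Of these, 2 passed between layers (2.63%, against 1.63% of all rows), 1 in each direction. Lef1, a transcription factor through which β-catenin acts, was at 18.85, 21.13 and 18.12 RPKM (ULAs) against 4.37, 4.09 and 5.46 RPKM (DLAs; log2 fold change 1.86, SE 0.14, adjusted p = 0.000196). Serpinf1, a secreted serpin that can bind Lrp6, was at 3.33, 3.23 and 1.87 RPKM (ULAs) against 6.72, 6.49 and 6.68 RPKM (DLAs). On the log2 scale the difference was −1.03 (SE 0.16, adjusted p = 0.0114), but the gene was no longer called in a model of layer alone, after a correction for mRNA length, with a minimum of 5 RPKM (which left it out) or with no filter. The median log2 fold changes were 0.07 over 12 surface and secreted modulators, 0.01 over 36 genes of the β-catenin branch and 0.12 over 28 genes of the polarity and calcium branch, beside −0.03 over all rows.

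Among the surface modulators the most abundant were Atp6ap2, at 183 ± 4.54 RPKM (SD, n = 3 brains) for ULAs and 182 ± 6.87 RPKM for DLAs, Ndp, at 101 ± 3.17 and 104 ± 11.7, and Tspan12, at 55.0 ± 5.95 and 59.2 ± 6.68. Ndp encodes norrin, a ligand of Fzd4 that is not a Wnt protein, and Tspan12 is a partner of Fzd4 in that complex. The log2 fold changes of all 3 lay between −0.10 and 0.01, and none passed. Tpbg and Lypd6, which act on Wnt signalling at the cell surface, had log2 fold changes of 0.46 (SE 0.10, adjusted p = 0.0640) and 0.50 (SE 0.12, adjusted p = 0.0901) and were higher in the ULAs of 3 of 3 brains. Inside the cell, Csnk1a1 (59.9 ± 1.62 and 57.3 ± 6.21 RPKM), Cby1 (41.3 ± 3.41 and 55.97 ± 3.69) and Fbxw11 (26.0 ± 0.852 and 25.9 ± 2.01) led the β-catenin branch. Of these, Cby1, an antagonist of β-catenin, differed by −0.43 on the log2 scale (SE 0.10, adjusted p = 0.0757). Axin2, a widely used Wnt target, stood at 1.57 ± 0.220 RPKM (ULAs) and 1.32 ± 0.210 RPKM (DLAs; log2 fold change 0.15, SE 0.15, adjusted p = 0.668). Cdc42, Plcb1 and Camk2g, the most abundant genes of the polarity and calcium branch, had log2 fold changes of −0.08, −0.08 and −0.06 and did not pass.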

How the data were processed

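Astrocyte RNA of 3 brains was converted to cDNA (SMART-Seq v4), built into Nextera XT libraries and read from 1 end over 36 bases. The authors deposited RPKM values and the mRNA length of each of 43383 rows. Their processing notes name bcl2fastq 1.8.4, CASAVA 1.8.2 and the build mm9, and the aligner and the counting program are not given in the sources used here. Values appear to have been truncated to 2 decimals once after division by depth and again as RPKM. With both steps, all values up to 3 RPKM in rows of up to 500 bases came out as whole reads at the depths given. For the DLAs of brain 2 a deeper library matched as well, and the lower depth was taken. Read numbers are derived from these depths and give precision only, and truncation lowers the smallest values.

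The 2-sided test was that of limma 3.58.1 (R 4.3.3), with lmFit followed by eBayes and its trend over intensity. With 3 pairs an exact permutation test has a smallest p of 0.25, and none is given. Replicate numbers were taken as brains because the deviations of equally numbered libraries from the mean of their layer were correlated (across genes, r = 0.42, 0.33 and 0.34, and −0.20 to −0.16 for unequal numbers). Within a layer the deviations of a gene cancel out, so the negative values largely follow from the positive ones. These correlations cannot tell a shared brain from shared handling of the libraries. The fit was tested on simulated data with 200 changed genes at a time. Tables and figures were made in Python 3.11.15 with pandas 2.3.3, numpy 2.4.6 and matplotlib 3.10.9.

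Members are the rows whose symbol fits a fixed pattern of Wnt pathway names. Members and lists were chosen with earlier results of these data known. Full values are given for members that passed, for those with 1 direction in 3 brains and an absolute log2 fold change of at least 0.4, and for the 6 most abundant, and other members named with full values were chosen after their values were seen. Marker lists for upper-layer and deep-layer neurons, oligodendrocyte precursors, pericytes with smooth muscle cells, and fibroblasts were also summed. The lowest and highest sums over the 6 libraries were 111 and 185, 23.5 and 36.7, 85.4 and 134, 12.0 and 23.1, and 15.5 and 58.4 RPKM, led in the upper-layer neuron list by Rorb and Lhx2. GC content came from GENCODE M21 transcripts matched by RefSeq accession (80.2% of tested rows). Promoters are from RefSeq, and 40 of the 59 members matched. Settings varied in turn were leaving the brain out of the model, adding 0.1 in place of 1, no filter, a minimum of 5 RPKM, quantile normalization, median centring, a correction for mRNA length (loess, span 0.5), limma without the trend, and each brain left out.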

Additional observations from a re-analysis of the deposited data

How the results depend on the processing

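Rows called over the whole table, higher in ULAs and in DLAs, numbered 100 and 128, with 23 and 18 without the replicate block, 0 and 0 with no filter on low RPKM, 65 and 78 after the correction for mRNA length, 65 and 79 without the variance trend, and ranges of 104 to 426 and 126 to 687 with 1 brain left out, highest without brain 3. Quantile normalization turned the balance to 138 and 103. For the members, with 1 and 1 in the main comparison, the numbers were 0 and 1 without the replicate block, 0 and 0 with no filter, 1 and 0 with a minimum of 5 RPKM (which leaves out Sfrp5), 0 and 1 without the variance trend, and 0 to 3 and 1 to 2 with a brain left out. Without brain 3, Ror1 and Lgr4 in ULAs and Fzd9 in DLAs passed as well. For the other pathway genes, also 1 and 1, they were 1 and 0 without the replicate block, 0 and 0 with no filter, 3 and 1 with a minimum of 5 RPKM, 2 and 1 under quantile normalization, 1 and 0 after the length correction, and 1 to 4 and 1 to 3 with a brain left out. With no filter, 7 of the 55 members fitted (12.7%) and 10% of all 27963 rows had an unadjusted p under 0.05, beside 4 of 28 (14.3%) and 16.4% in the main comparison. The causes were not tested. With no filter, 27963 rows were tested in place of 13999. The SE of Sfrp5 was then 0.137, against 0.148 in the main comparison, while its adjusted p rose from 0.00296 to 0.300.

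No member that passed changed its sign. Of the others, Wnt7b turned to 0.081 under quantile normalization and Lrp6 to −0.11 after the length correction, and 12 turned with a brain left out, none of them past the threshold. Their log2 fold changes then ranged from −0.080 to 0.22 (Dvl2), −0.16 to 0.14 (Dvl1), −0.14 to 0.000500 (Frzb), −0.039 to 0.26 (Znrf3), −0.40 to 0.11 (Fzd8), −0.044 to 0.21 (Sfrp1), −0.11 to 0.085 (Wnt7b), −0.14 to 0.29 (Ryk), −0.087 to 0.18 (Lrp6), −0.27 to 0.020 (Fzd7), −0.051 to 0.15 (Wnt7a) and −0.030 to 0.22 (Porcn). Depth limits the members under 1 RPKM, where a few reads more or less change the value.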

Other observations

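In the other pathway lists, the brain term passed for 4 of the 76 genes tested (5.26%, against 2.85% of all rows), namely Gsk3a, Tle1, Rac1 and Frat2 (adjusted p = 0.00823, 0.0110, 0.0289 and 0.04997, limma). Gsk3a, a kinase that marks β-catenin for breakdown, was at 4.77, 2.05 and 5.32 RPKM (ULAs) against 7.09, 1.73 and 7.60 RPKM (DLAs). Tle1, a co-repressor that binds Lef/Tcf factors, was at 15.93, 9.40 and 21.98 RPKM (ULAs) against 18.89, 12.41 and 23.27 RPKM (DLAs). Rac1, a small GTPase of the polarity branch, was at 15.71, 8.65 and 17.61 RPKM (ULAs) against 53.08, 8 and 43.94 RPKM (DLAs). Its log2 fold change between layers was −0.96 (SE 0.27) and did not pass (adjusted p = 0.117), although it did without brain 2 and without brain 3. Frat2, which binds GSK3, was at 1.55, 0.34 and 1.94 RPKM (ULAs) against 2.17, 0.65 and 1.70 RPKM (DLAs). Brain 2 was the lowest in both layers for all 4 genes, as it was for the 5 members named above.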
